A study of Mus musculus with 2 samples.

Results

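The transcripts described here are those of the p53 and Rb brake on the cell cycle. They were taken as the rows of the deposited gene table whose symbol was Trp53, Mdm2, Ccng1, Sesn2, Cdkn1a, Cdkn1b, Cdkn1c, Cdkn2a, Cdkn2c or Rb1. All 10 were in the table, among 21542 genes in all. RNA sequencing compared MIN6 cells, a mouse insulinoma line of C57BL/6 background that secretes insulin, after transfection with a control vector or with a vector that expresses GR, the glucocorticoid receptor encoded by Nr3c1. Each group was 1 library, so nothing below could be checked against replicates. Both groups were grown in 25 mM glucose and 15% serum and received 4 ug of plasmid and 4.8 ul of Lipofectamine 2000 per 3.5 cm dish, per the labels' protocols. Which form of GR was expressed, how long after transfection cells were harvested and whether a steroid was added is not stated in the labels.

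In a normal cell p53 is a transcription factor that stress stabilises, and Mdm2 is the ubiquitin ligase that removes it. Its best known target is Cdkn1a (p21), which blocks cyclin-dependent kinases (CDKs), and Cdkn2a encodes both p16, an inhibitor of CDK4 and CDK6, and Arf, an inhibitor of Mdm2. When CDKs are blocked, Rb stays unphosphorylated and holds E2F factors silent, which keeps the cell out of S phase. In beta cells p16 accumulates with age and limits proliferation, while p18 and p27 (Cdkn2c and Cdkn1b) are controlled by menin, the product of the tumour suppressor gene Men1. Glucocorticoids are known to induce Cdkn1a and Cdkn1c in several cell types. The MIN6 line itself was derived from mice carrying the SV40 large T antigen under the insulin promoter, a protein that binds p53 and the Rb family, and its transcript was not analysed here.

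Of the 250 bases before each annotated start in RefSeq (GRCm38.p6), windows were given for 8 of the 10 genes, 11 windows in all. Cdkn1c and Rb1 had none. A p53 element was searched as a pair of adjoining recognition sequences, 20 bases in all, with at most 2 bases off the consensus and the core C and G of each kept. It was found in 0.271% of all 32851 windows and in 2 of the 11, at Cdkn1a and Ccng1, each with 1 base off the consensus. These windows are shown because both genes are known targets of p53, with the element in capitals and 5′ to 3′ on the strand of the gene. The first, at chr17:29090729-29090978 on the plus strand, precedes the upstream start of Cdkn1a, and the second, at chr11:40755287-40755536 on the minus strand, precedes Ccng1.
Cdkn1a upstream start: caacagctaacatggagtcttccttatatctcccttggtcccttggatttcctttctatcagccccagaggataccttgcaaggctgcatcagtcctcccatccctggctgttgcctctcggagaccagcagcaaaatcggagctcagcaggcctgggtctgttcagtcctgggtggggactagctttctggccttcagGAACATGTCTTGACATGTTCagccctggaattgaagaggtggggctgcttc
Ccng1: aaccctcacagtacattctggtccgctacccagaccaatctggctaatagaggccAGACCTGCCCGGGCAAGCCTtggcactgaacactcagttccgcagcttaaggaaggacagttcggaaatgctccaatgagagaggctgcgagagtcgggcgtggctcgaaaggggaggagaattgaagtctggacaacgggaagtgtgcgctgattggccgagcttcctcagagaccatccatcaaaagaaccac

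The glucocorticoid response element, the inverted repeat that the receptor itself binds, searched on both strands with each core base kept, was in 0 of the 11 windows and in 0.387% of all windows. This says only that these letters do not occur in these 250 bases. The second annotated start of Cdkn1a, with its window at chr17:29093519-29093768, and the windows of Cdkn1b, Mdm2 and Sesn2 held the GC box GGGCGG, as did 1 of the windows of Cdkn2a and of Cdkn2c. That made 6 of the 8 genes, against 32.7% of all windows, a share counted per window and not per gene. Among 37 further p53 target genes with a window, 1 held the p53 element, Ckap2.

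Reads assigned to genes numbered 18537326 (control library) and 18525668 (GR library). Nr3c1, the targeted gene, had 2645 and 5202 reads, a fold of 1.97 (95% interval 1.88 to 2.07), and its counts do not tell vector transcripts from those of the cells' own gene. All 10 beta cell markers had at least 50 reads, and 3 of them were lower in the library test: Ins2 (407986 and 373033 reads, fold 0.917), Ins1 (fold 0.956) and Iapp (fold 0.968). That test called 2.72% of all genes and 8.1% of those averaging 1000 reads or more. Log2 folds of the 10 markers were above 0 for 6 and below 0 for 4, with a median of 0.0194. The 10 summed to 834023 and 787852 reads, sums that include the Ins2 reads given above. Their part in the results below was not tested. Of the markers of other cell types, those of alpha, delta and PP cells (3 of 7 measured) summed to 638 and 746 reads and exocrine markers (4 of 10) to 2764 and 2518. Among the 4 exocrine markers, Krt7 was lower in the library test (fold 0.894), while the other 3 had log2 folds above 0. Fibroblast and endothelial markers (6 of 10) summed to 100 and 113 reads, and immune markers (5 of 8) to 220 and 221. The defining markers Ppy, Prss1, Cpa1 and Ptf1a were not among the table's genes. In RNA from a whole dish, fewer cells that express a gene and less RNA per cell cannot be told apart.

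None of the 10 genes differed between the libraries by as much as 1.2-fold. Folds, here the GR library over the control library after scaling for library size, ran from 0.949 for Cdkn1a to 1.11 for Ccng1, with 5 genes above 1 and 5 below. The median log2 fold was 0.0091, against 0.0037 over all genes. Across all genes 37.4% differed by 1.2-fold or more, a share set mostly by genes with few reads. It was 5.04% of genes that averaged 100 reads or more. Of the 4867 genes that averaged 1000 reads or more it was 0.288%, and 8 of the 10 genes were in that range. At a fold of 1.1 or more, 1 of the 10 counted (Ccng1), against 21.1% and 7.07% of genes in the same ranges.

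An exact binomial test of the reads, called the library test below, was run on every gene with Benjamini-Hochberg adjustment. It compares these 2 libraries and covers counting error only, so it says nothing of how other dishes would vary. The library test called 0 of the 10 genes, against 2.72% of all genes, 1.58% higher and 1.14% lower with the GR vector. Of genes that averaged 100 reads or more it called 4.69%, 2.77% higher and 1.92% lower, and of those that averaged 1000 reads or more 8.1%. Without adjustment, 3 of the 10 had a p below the threshold of 0.05 (Cdkn1a, Cdkn2a and Ccng1), as did 19.8% of genes that averaged 100 reads or more. In the authors' deposited table the adjusted p was 1 for each of the 10 genes, and 0.0186% of all genes passed it.

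**Figure D1:**
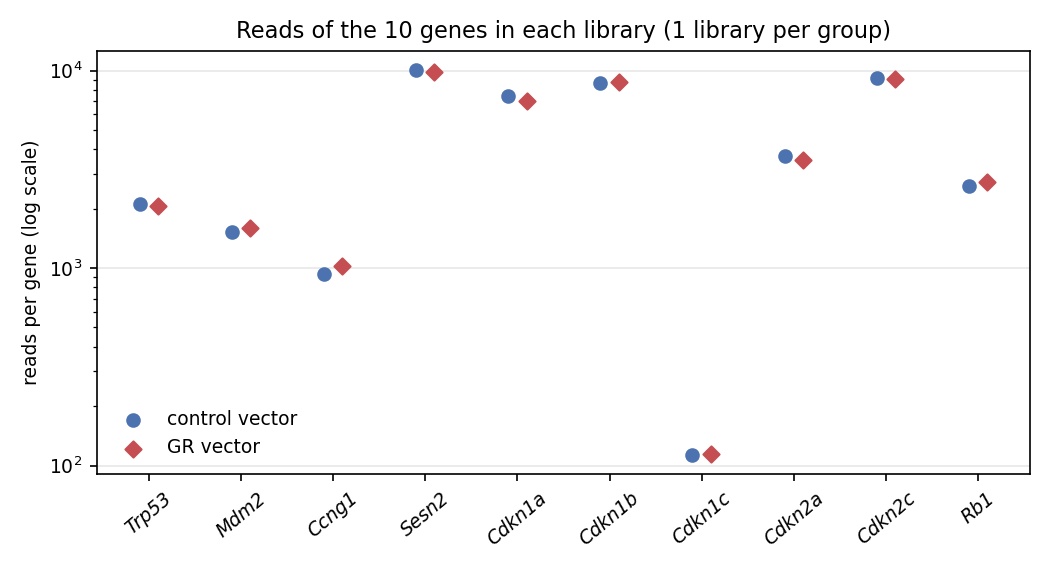
Reads per gene (log scale) in the control library (circles) and the GR library (diamonds) for the 10 genes, 1 library per group and no error bars. The points of each pair lie close together, from 113 and 115 reads for Cdkn1c to 10064 and 9800 for Sesn2.

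Trp53, the gene of p53 (chromosome 11, 69580359 to 69591873, plus strand), had 2100 and 2051 reads in the control and GR libraries. The fold was 0.979 (95% interval 0.921 to 1.04), so the libraries were not distinguishable at this depth. Of the 31-base stretches of its transcripts, 9.46% also occur in another annotated gene, most of them in the pseudogene Trp53-ps, which had 29 and 31 reads. Wrap53, which lies 104 bases away on the opposite strand, had 566 and 548.

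Mdm2, the ligase for p53 and itself a p53 target (chromosome 10, 117688875 to 117710758, minus strand), had 1523 and 1597 reads. Its fold was 1.05 (0.980 to 1.13), on the other side of 1 from Trp53, with an interval that also held 1. Per length, Mdm2 stood at 0.577 of the level of Trp53 with the control vector and at 0.620 with the GR vector. Mdm4, the relative of Mdm2 that masks p53, had 2253 and 2264 reads, and Ppm1d, a phosphatase that turns the p53 response off, 1285 and 1283.

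Ccng1, cyclin G1 (chromosome 11, 40748552 to 40755311, minus strand), is a p53 target that acts with protein phosphatase 2A on Mdm2. It had 931 and 1026 reads, the highest fold of the 10 at 1.11 (1.01 to 1.21), with an adjusted p of 0.296 in the exact binomial test of the reads. With the trend over GC content removed its fold was 1.05. Its neighbour Nudcd2 had 631 and 687 reads (fold 1.09, 0.979 to 1.22).

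Sesn2, sestrin 2 (chromosome 4, 132492032 to 132510501, minus strand), senses leucine and restrains mTORC1, and is induced by p53 and by ATF4. It was the most read of the 10, with 10064 and 9800 reads. The fold of 0.977 (0.950 to 1.00) had an interval that reached 1. Its relatives Sesn1, the sestrin most often named as a p53 target, and Sesn3, a FOXO target, had 383 and 366 reads and 4958 and 5408.

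Cdkn1a, the gene of p21 (chromosome 17, 29090976 to 29100727, plus strand), had 7394 and 6995 reads in the control and GR libraries. The fold was 0.949 (0.918 to 0.980), with an adjusted p of 0.0567 in the exact binomial test of the reads, next to the threshold of 0.05. The call turned on the settings: the adjusted p of that exact test was 0.0427 with total reads in place of TMM factors, 0.0412 with DESeq2 size factors and 0.0402 with genes under a mean of 10 reads left out, which would make Cdkn1a lower with the GR vector. With the GC trend removed the fold was 0.966, and with the trend over gene length removed 0.955. Cdkn1a did not pass the library test under either of these settings. Cdkn1a and Ccng1, the pair with a p53 element in the windows printed above, thus lay on opposite sides of 1. The lncRNA gene Trp53cor1 (lincRNA-p21), the nearest gene on the lower side of Cdkn1a and also a p53 target, had 86 and 70 reads. With 41.0% of the 31-base stretches of Trp53cor1 shared with other genes, that count is uncertain. An annotated transcript on the opposite strand within the gene, AC167363.2, had 59 and 67, and since no source used here gives the strand handling, its reads cannot be told from those of Cdkn1a where they overlap.

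Cdkn1b, the gene of p27 (chromosome 6, 134920401 to 134925513, plus strand), which holds CDK2 inactive in resting cells, had 8610 and 8723 reads. Its fold was 1.02 (0.986 to 1.05), and removing the GC trend put it on the other side of 1 at 0.980. Cdkn1c, the imprinted gene of p57 (chromosome 7, 143458339 to 143461050, minus strand), had 113 and 115 reads, and its fold of 1.02 (0.780 to 1.34) leaves changes of that size in either direction undetectable at this depth. Of its 31-base stretches, 27.2% also occur in Gm44732, annotated on the opposite strand, so its counts are uncertain. Neighbours in the same imprinted region were nearly unread, Kcnq1 with 6 and 6 reads and Slc22a18 with 13 and 17.

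Cdkn2a (chromosome 4, 89274471 to 89294653, minus strand) had 3700 and 3504 reads, a fold of 0.950 (0.907 to 0.995), with an adjusted p of 0.301 in the exact binomial test of the reads. The gene count pools p16 and Arf, which start at separate promoters. Its neighbour Cdkn2b, which encodes p15 and lies 11646 bases away, had 434 and 438 reads and a fold of 1.01 (0.884 to 1.16). Cdkn2c, the gene of p18 (chromosome 4, 109660876 to 109667189, minus strand), had 9141 and 9085 reads, the fold of the 10 nearest to 1 at 0.997 (0.968 to 1.03). Of genes that averaged 1000 reads or more, 95.2% differed more, compared with 30.9% for Cdkn1a and 31.9% for Cdkn2a.

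Rb1 (chromosome 14, 73183673 to 73325822, minus strand), the pocket protein the INK4 inhibitors act through, had 2597 and 2716 reads. Its fold was 1.05 (0.994 to 1.11), and 1.00 with the GC trend removed. It overlaps Rcbtb2 on the opposite strand, which had 612 and 627 reads, and 13.2% of its 31-base stretches occur in other genes, 430 of 783 in Rcbtb2. The other pocket protein genes Rbl1 (p107) and Rbl2 (p130) had 2290 and 2387 reads and 617 and 632, so their folds of 1.05 and 1.03 lay on the same side of 1, each with an interval holding 1.

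**Figure D2:**
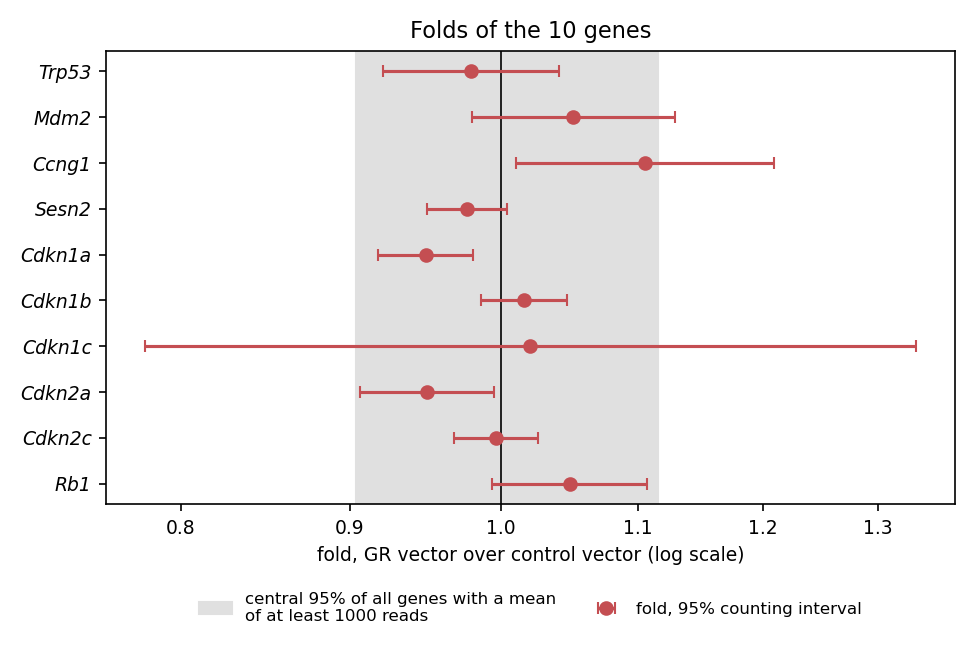
Fold of the GR library over the control library (log scale) for the 10 genes, with exact 95% intervals for counting error. The grey band holds the central 95% of the 4867 genes averaging 1000 reads or more (0.904 to 1.12), and every one of the 10 folds lies inside it. Ccng1 and Cdkn1c averaged fewer reads than that. For genes averaging 100 to 1000 reads, the central 95% was wider, 0.805 to 1.24, and is not drawn.

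Members of one family can share sequence and so share reads. The longest run that Cdkn2a and Cdkn2b have in common, and the longest between Sesn2 and Sesn3, are printed because they are the longest found among the inhibitor, sestrin, pocket protein and cyclin G families apart from a run of T. Each is 23 bases, below the 31 bases used to judge shared reads. No 31-base stretch of Cdkn2a, Cdkn2c or Sesn2 occurs in another annotated gene.
Cdkn2a and Cdkn2b: cgggaaggcttcctggacacgct
Sesn2 and Sesn3: cactacattgccatcatggctgc

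Levels can be compared between genes only per length, so reads were divided by the gene length in the deposited table and by the library total, giving RPKM values. That length is 1 value per gene, whichever of its annotated transcripts the cells express. Annotated transcripts numbered 1 for Sesn2 and 9 for Mdm2, and which were expressed was not measured. Ratios between genes are therefore rough, and their intervals cover counting error only. On that scale Cdkn2c was highest of the 10, with 184 (control) and 183 (GR), above 99.5% of all genes in both. Cdkn2a followed with 170 and 161, Sesn2 with 156 and 152, Cdkn1a with 112 and 106 and Cdkn1b with 102 and 103. Trp53 (28.0 and 27.4), Rb1 (23.3 and 24.4), Mdm2 (16.2 and 17.0) and Ccng1 (14.3 and 15.8) stood several-fold lower, and Cdkn1c had 2.99 and 3.04. The order was the same in both libraries for all 10 genes. Neighbours in that order were close in places: the counting intervals of Cdkn1a and Cdkn1b overlapped in the GR library (104 to 109 and 101 to 106) but not in the control library (110 to 115 and 99.9 to 104), and those of Mdm2 and Ccng1 did likewise.

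Within the INK4 family, the inhibitors of CDK4 and CDK6, levels per length differed by about the same ratios in both libraries. Cdkn2a stood 10.1-fold (control) and 9.49-fold (GR) above Cdkn2b, and Cdkn2c 2.36-fold and 2.39-fold above Cdkn2d, the gene of p19 INK4d. Cdk4 itself stood at 0.561 and 0.543 of Cdkn2c. Cdk6 was not among the table's genes. Of the D cyclins that pair with CDK4, Ccnd1 had 3 and 4 reads, while Ccnd2 had 1334 and 1474 and Ccnd3 919 and 878. In the CIP/KIP family, which binds CDK2 complexes, Cdkn1b stood at 0.909 and 0.973 of Cdkn1a per length, and Cdkn1a was 37.6-fold and 34.9-fold above Cdkn1c. Sesn2 stood 30.1-fold and 30.7-fold above Sesn1 per length, and 8.92-fold and 7.96-fold above Sesn3. The latter ratios rest largely on the deposited lengths, since undivided reads were 10064 and 9800 for Sesn2 and 4958 and 5408 for Sesn3.

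**Figure D3:**
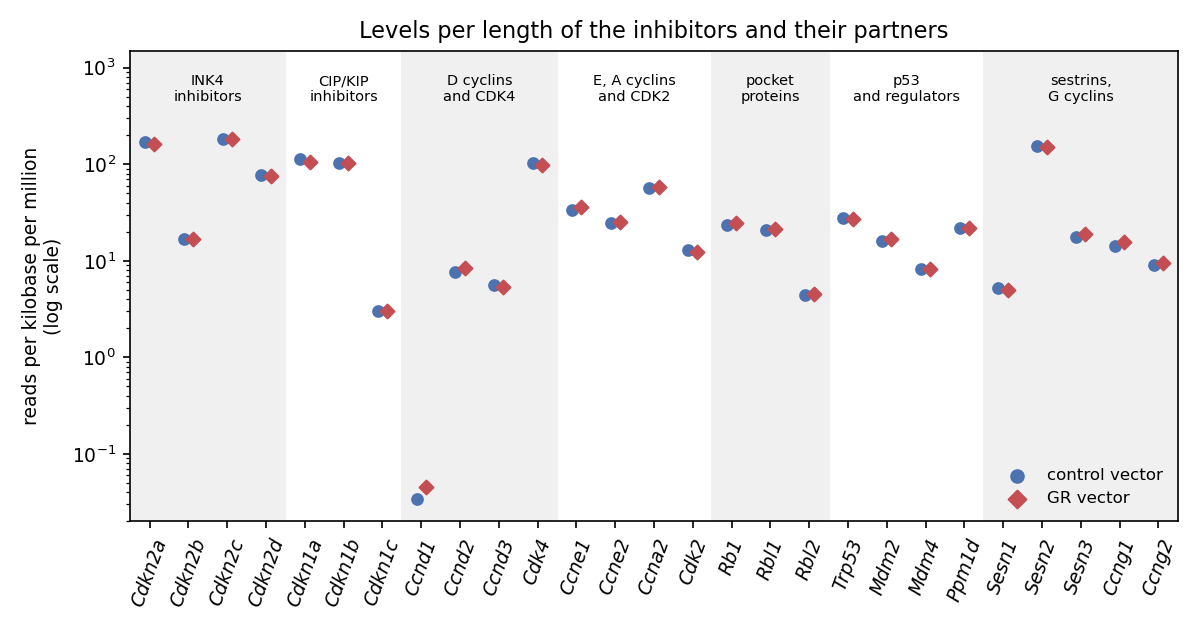
RPKM (log scale) of the CDK inhibitors and their partners, by family, in the control library (circles) and the GR library (diamonds). Cdkn2c, Cdkn2a, Sesn2, Cdkn1a and Cdkn1b lie above 100 in both libraries, and Ccnd1, with 3 and 4 reads, is the lowest gene drawn.

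The direction of the small differences followed base composition in most of the 10 genes, and the cause was not tested. GC content of their annotated transcripts ran from 39.5% for Ccng1 to 59.8% for Cdkn1c. The 4 genes below the median of well read genes (50.0%), which are Ccng1, Rb1, Cdkn1b and Mdm2, all had folds above 1. Of the 6 above that median, 5 had folds below 1, the exception being the sparsely read Cdkn1c. The same split ran through all genes that averaged 100 reads or more: 66.9% of those with lower GC had folds above 1 and 64.4% of those with higher GC had folds below 1. With a smooth trend over GC content removed, the 10 folds ran from 0.966 to 1.06, and the library test called 222 genes in place of 585. Some folds moved toward 1, such as those of Ccng1 (1.11 to 1.05) and Cdkn1a (0.949 to 0.966). Others moved away from it, such as that of Cdkn1c (1.02 to 1.06).

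**Figure D4:**
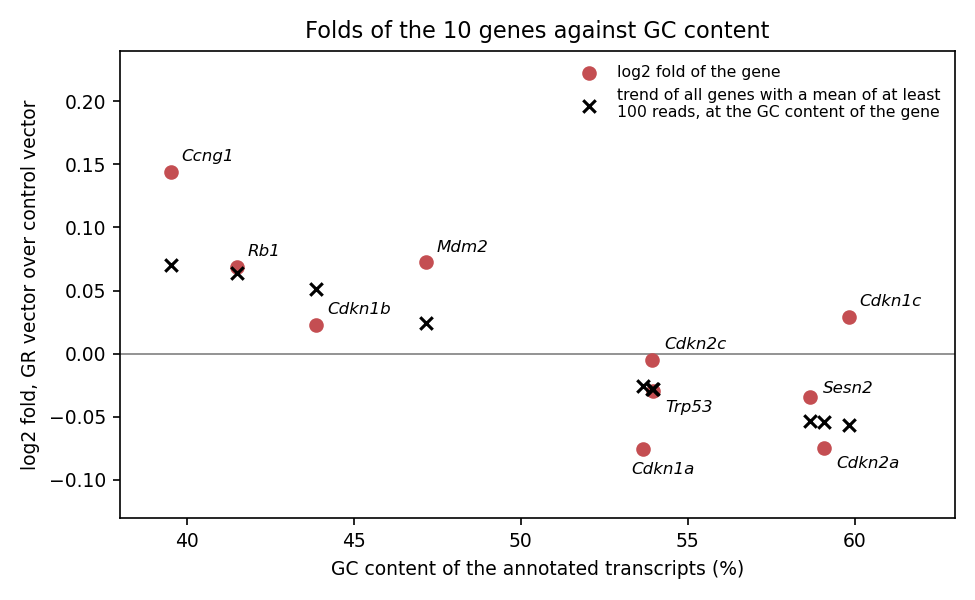
Log2 fold of the GR library over the control library against the GC content of the transcripts for the 10 genes (circles), with the trend of all genes averaging 100 reads or more at the same GC content (crosses). Genes with lower GC, such as Ccng1 at 39.5%, lie above 0, and most with higher GC lie below it, as the crosses do.

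The genes around these 10 were read from lists of the pathway. Of the 239 genes measured in them, with no limit on reads, the library test called 10 higher and 6 lower, or 6.69%. It called 2.72% of all genes, 4.69% of those averaging 100 reads or more and 8.1% of those averaging 1000 or more. The lists were not matched to all genes on reads, so neither their total nor the counts of each list below show more calls than elsewhere. The median log2 fold was 0.0019, against 0.0037 over all genes. With the GC trend removed, 3 of these calls were left: Castor2 and Mki67 higher and Tk1 lower. The other 13 calls named below were lost, some with little change in the fold: Tnfaip8 went from 1.31 to 1.30 (adjusted p of 0.0586 in the exact test) and Trp73 from 0.838 to 0.869, while Top2a moved across 1 to 0.995.

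Regulators of p53 had 2 genes higher and 1 lower of 25 measured. Atr, a kinase that signals replication stress, was higher, with 941 and 1101 reads (fold 1.17, 1.07 to 1.28), as was Prkdc, the catalytic subunit of DNA-dependent protein kinase, with 2952 and 3246. Trp73, a relative of p53, was lower with 1023 and 855 (fold 0.838, 0.765 to 0.919). The most read, Trim28 and the ribosomal protein gene Rpl5, had folds of 0.976 and 1.05, and 50.4% of the 31-base stretches of Rpl5 are shared with other genes.

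Other p53 targets had 1 gene higher and 0 lower of 47 measured, with 21 above and 26 below 0 and a median log2 fold of -0.04, or -0.0092 with the GC trend removed. The higher gene was Tnfaip8, with 291 and 381 reads (fold 1.31, 1.12 to 1.54). Bax, the pore-forming death protein and the most read of the list, had 2856 and 2649 reads (fold 0.930, 0.882 to 0.981), with an adjusted p of 0.140 in the exact binomial test. Cdk5rap2 had 2705 and 2736, and Bbc3, the gene of the death protein PUMA, 1398 and 1398. Bbc3 was singled out after its values were seen. The deposited enrichment report was the one for the GR library, with normalized scores from 0.805 to 1.06. All its scores were thus positive, and ranks in it are only among sets scored toward that library. In the authors' deposited enrichment report the p53 signalling set (71 genes) had a normalized score of 1.00 and an FDR q of 0.960, 138th of 307 sets. Cellular senescence was 118th and cell cycle 37th there, with q values of 0.970 and 0.919 in that deposited report, whose lowest q was 0.877.

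Among pocket proteins, E2F factors and the DREAM complex, which Rb and its relatives act with, 1 of 22 was higher and 0 lower. This was Rbbp7, a histone-binding protein, with 5398 and 5817 reads (fold 1.08, 1.04 to 1.12). Its relative Rbbp4 had 7411 and 7528. Lin52, a DREAM subunit, had 459 and 381 (fold 0.832, 0.725 to 0.956), with an adjusted p of 0.153 in the exact test, and Lin37 had 347 and 318. E2f1 had 3546 and 3508.

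Of 20 cyclin, CDK and related genes measured, 1 was higher and 1 lower. Ccnh, the cyclin of the CDK-activating kinase, had 642 and 802 reads (fold 1.25, 1.13 to 1.39), and Pkmyt1, a kinase that inhibits CDK1, had 1176 and 1012 (fold 0.863, 0.793 to 0.939). Cdk7 and Mnat1, the other subunits of that activating kinase, had 334 and 305 reads and 444 and 460, on opposite sides of 1. The most read were Cdk4, with 6199 and 5969, and Ccna2, with 4312 and 4368.

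Of 9 other CDK inhibitors and related genes, 0 passed the library test in either direction. Cables2 and Cdkn2aip had folds of 0.914 and 1.05, and the most read, Trib3 and Cdkn2d, folds of 0.955 and 0.987. Trib3 was listed here as a related gene and was also counted in the ATF4 pathway below. Of 16 genes of the ubiquitin ligases that remove these inhibitors and cyclins, 1 was higher and 1 lower. Skp1a, the linker of SCF ligases, had 2197 and 2418 reads (95% interval of the fold 1.04 to 1.17), and Cdc20, an activator of the anaphase-promoting complex, had 3135 and 2876 (fold 0.920, 0.874 to 0.968). The count of Cdc20 is uncertain, with 26.7% of its 31-base stretches shared. Cul4b had a fold of 1.11 and Ddb1 one of 1.00.

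Of 26 chromatin and transcription factors that act on the inhibitor genes, 1 was lower and 0 higher. Phc2, a polycomb subunit, had 3492 and 3182 reads (fold 0.914, 0.871 to 0.959). Kmt2a, the methyltransferase that works with menin at Cdkn1b and Cdkn2c, had 7101 and 7190 reads, and Foxm1 4529 and 4426. Myc had 63 and 76 reads and Smad3 410 and 355, neither past the library test.

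Of 24 genes of sestrins, GATOR complexes and AMPK, 2 were higher and 0 lower. Sesn3 had 4958 and 5408 reads (fold 1.09, 1.05 to 1.14). Castor2, a relative of the arginine sensor of mTORC1, had 2725 and 2973 reads (fold 1.09, 1.04 to 1.15). With the trend over gene length removed both calls were lost, Castor2 at a fold of 1.08 and Sesn3 at 1.06, with adjusted p of 0.0814 and 0.0786 in the exact test. Rragb had a fold of 0.895 and the autophagy receptor gene Sqstm1, the most read, 0.973.

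Of 12 genes of the ATF4 pathway, the other route to Sesn2, 0 passed in either direction, with Atf4 at 9485 and 9526 reads, Asns at 8123 and 8286, and Ddit4 and Eif2s1 at folds of 1.09 each. Of 12 cyclin G partners and subunits of protein phosphatase 2A, 0 passed either. Ppp2r1b and Ppp2r5b had folds of 1.11 and 0.922, and the most read, Ppp2r1a and Ppp2ca, folds of 0.952 and 1.02. The count of Ppp2ca is uncertain, with 42.7% of its 31-base stretches shared.

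S phase and proliferation genes that E2F drives had 2 genes higher and 2 lower of 30, with a median log2 fold of 0.01. That is 13.3% called, beside 8.1% of all genes averaging 1000 reads or more. Mki67 had 15065 and 16134 reads (fold 1.07) and Top2a, a topoisomerase of dividing cells, 17012 and 17578 (fold 1.04). Tk1, thymidine kinase, had 1608 and 1346 reads (fold 0.839, 0.780 to 0.903), and Mcm2, a subunit of the replicative helicase, 18459 and 17756 (fold 0.965). The call of Top2a also went under total reads and DESeq2 scaling, with adjusted p of 0.0653 and 0.0751 in the exact test. Rfc4 had a fold of 1.08.

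**Figure D5:**
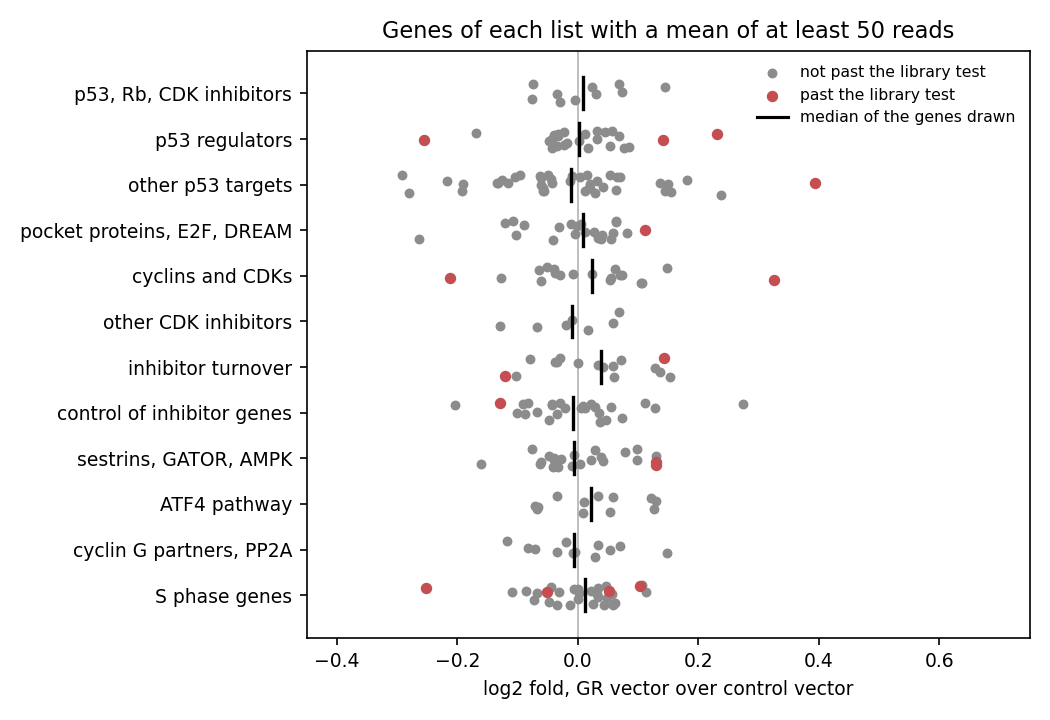
Log2 fold of the GR library over the control library for each gene with a mean of at least 50 reads, by list, with those past the library test in red and the median of the genes drawn as a black bar. Medians lie near 0 in all 12 rows, the red points lie on both sides of 0, and the row of the 10 genes holds none.

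Of the 20 genes next to the 10 on the chromosome, 1 on each side, 0 passed the library test, against 2.72% of all genes. Among the 12 that averaged 50 reads or more the lowest fold was 0.816 for Trp53cor1, whose count is uncertain because of its shared stretches. The highest was that of Slc35e3, beside Mdm2, which had 404 and 484 reads and an interval of 1.05 to 1.37. Sparsely read neighbours differed more, such as 2810454H06Rik beside Cdkn1b with 56 and 36 reads (fold 0.645, 0.412 to 0.997) and Rpl35a-ps3 beside Cdkn1a with 12 and 2 (fold 0.167, 0.0182 to 0.751). Itm2b, beside Rb1, had 8119 and 8446 reads, and Faf1, beside Cdkn2c, 2997 and 3043.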

How the data were processed

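The deposited gene table held, per library, read counts scaled to a common library size, and also a log2 fold change, p-values and gene length. Dividing each deposited signal by the value of 1 read gave whole reads for 99.98% of values (tolerance 0.01), which were used as counts. The authors' log2 folds and p-values were regained to within 4.9e-08 and 4.5e-08 by an edgeR exact test with a preset dispersion of 0.04. The submitters' processing notes name DESeq2 1.10.1. Enrichment scores were read from the authors' deposited report. Nothing used here names the aligner, counter, build or strand handling.

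Reads were scaled with TMM factors (edgeR 4.0.16, R 4.3.3), 1.00 and 0.999. The library test was a two-sided exact binomial test (scipy 1.17.1) over all 21542 genes with Benjamini-Hochberg adjustment and a threshold of 0.05. Fold intervals are 95% Clopper-Pearson intervals and level intervals exact Poisson intervals. The test was checked on simulated data. Of the table's gene IDs, 21516 were in GENCODE M21, 96.8% with the same coordinates, including all 10 genes. GC content and shared 31-base stretches came from its transcripts, and the trends were lowess fits with a fraction of 0.3.

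The 10 genes and the lists were chosen with earlier results of these data known. From each list the text names the 2 genes with the largest fold among those with a mean of at least 50 reads, the 2 most read, and every gene past the library test. Relatives and partners of the 10 genes outside that rule, such as Mdm4, Ppm1d, Rbl1, Rbl2, E2f1, Sesn1, Bbc3, Cdk7, Mnat1 and the D cyclins, were added after their values were seen. Alternatives were total reads, DESeq2 1.42.0 size factors, a filter at a mean of 10 reads, removal of GC and length trends, other dispersions and other thresholds.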

Additional observations from a re-analysis of the deposited data

How the results depend on the processing

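No paired analysis was possible because each group was 1 library and the labels give no replicate numbers. Of 50 results, the 10 folds under 5 alternatives, 43 kept their direction and side of the threshold, 4 changed direction and 3 gained a call. The changes of direction were Cdkn1b (0.980), Cdkn2c (1.02) and Sesn2 (1.01) with the GC trend removed and Cdkn2c (1.00) with the length trend removed. The gain was Cdkn1a each time, so that 1 of the 10 genes passed the library test with total reads, DESeq2 size factors or a filter at a mean of 10 reads (adjusted p of 0.0427, 0.0412 and 0.0402 in the exact binomial test). At a fold of at least 1.1, 1 gene counted, Ccng1. With the GC trend removed, counts fell to 0 for p53 regulators, higher and lower, p53 targets, higher, pocket protein genes, higher, cyclins and CDKs, higher and lower, inhibitor turnover, higher and lower, and inhibitor gene control, lower. Counts were then 1 for sestrin genes, higher, and 1 each for E2F targets, higher and lower, and all genes gave 114 higher and 108 lower. With the length trend removed, counts were 0 for p53 regulators, higher, inhibitor turnover, lower, and sestrin genes, higher, and 1 for p53 targets, lower (Ptp4a3). E2F targets, higher, fell to 1 with that trend removed, total reads or DESeq2 size factors. Genes past the authors' adjusted p numbered 4, against 16 at a dispersion of 0.01 and 0 at 0.16. The cause of these changes was not tested, and counting depth limits Cdkn1c most.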
